A study of Mus musculus with 6 samples.

Results

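Amino acid transporter genes were compared between whole mouse bone marrow and marrow cells sorted for green fluorescent protein (GFP). Members were the genes whose symbol on the array's annotation begins with Slc1a, Slc3a, Slc6a, Slc7a, Slc36a, Slc38a or Slc43a and a digit, and 63 of the 18193 named genes met this rule. Of these, 60 are transporter genes or transporter subunits by name, and 3 (Slc7a6os, Slc6a19os and Slc36a1os) are genes next to a transporter that share its symbol and are not known as transporters. All animals were adult mice hemizygous for a transgene in which renin regulatory DNA drives GFP, males and females 3 to 6 months old, and femoral marrow of 4 to 5 of them was combined on each of 3 sorting days. Part of each pool stayed unsorted (presort, n = 3) and the remainder was sorted for GFP fluorescence (sorted, n = 3), so both groups carry the transgene and each presort array has a partner from the same pool. The gates took out erythrocytes and debris by light scatter, kept single cells, and admitted 0.1% of the cells of animals lacking the transgene as GFP positive. Each sample was read on 1 Affymetrix 3' expression array. The sorted cells are marrow cells with GFP fluorescence, and the tissue holds many cell types, so fewer cells of a type and less RNA per cell cannot be told apart in these bulk samples.

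Solute carrier families 1, 3, 6, 7, 36, 38 and 43 move most amino acids across animal cell membranes. Slc3 proteins are heavy chains that carry Slc7 light chains to the plasma membrane as heterodimers, and the light chain decides which amino acids are exchanged. Other Slc7 members take up cationic amino acids without a heavy chain. Slc1, Slc6 and Slc38 proteins mostly draw amino acids or related solutes in with sodium, Slc36 proteins use protons, and Slc43 proteins work by facilitated diffusion. In marrow, such transporters supply dividing precursors, and glycine uptake feeds heme synthesis in red cell precursors.

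Sorted replicate 1 stood apart in RNA quality, with a beta-actin 3' probe set 3.17 above its 5' probe set on the log2 scale, against 1.43 to 1.54 in the other sorted arrays and 0.81 to 1.11 in presort arrays. All sorted arrays lay above all presort arrays in this measure. A fit that uses it therefore cannot fully part RNA quality from the sort. Values below are log2 intensities, and a difference is sorted minus presort on that scale. A gene is called where limma's Benjamini-Hochberg adjusted p over all genes is under 0.05, in a fit that does not use the pairing by pool. The replicates are separate pools of mice, per the series' design text. With 3 arrays per group the precision is limited, and without detection calls the change of a dim gene is understated.

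In sorted samples 10 of the 63 member genes rose and 17 fell, 42.9% in all against 32.6% of all genes tested. Without the 3 neighbour genes, 9 of 60 (15.0%) rose and 17 (28.3%) fell. Over all genes 14.5% were higher and 18.1% lower, so the share of members that rose (15.9%) was near the background and the share that fell (27.0%) was above it, without a test of that difference. The members did not shift together: their median difference was 0.01, against a median of -0.00 over all genes, while single members ran from -3.90 for Slc6a20a to 1.80 for Slc38a9. A called change of at least 2-fold was seen in 6 members upward (5 without the neighbour genes) and 9 downward, where the background was 5.8% and 10.3%. All 27 called members had 1 sign in all 3 pools and groups that did not overlap. Nearly all called genes did so too (5920 and 5897 of 5925), so this adds little to the call. Of the 63 members 12 had every sorted array above every presort array and 19 had every sorted array below, against 20.9% and 23.6% of all genes. Without sorted replicate 1 the counts were 11 higher and 17 lower, and 32.2% of all genes were called. After centring of every array at its own median, which moved the median of all genes to 0.225, 18 members were higher and 14 lower, and the share of higher calls went from 37.0% to 56.2% of member calls (44.4% to 66.7% over all genes). All called members kept their sign under that centring.

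**Figure D1:**
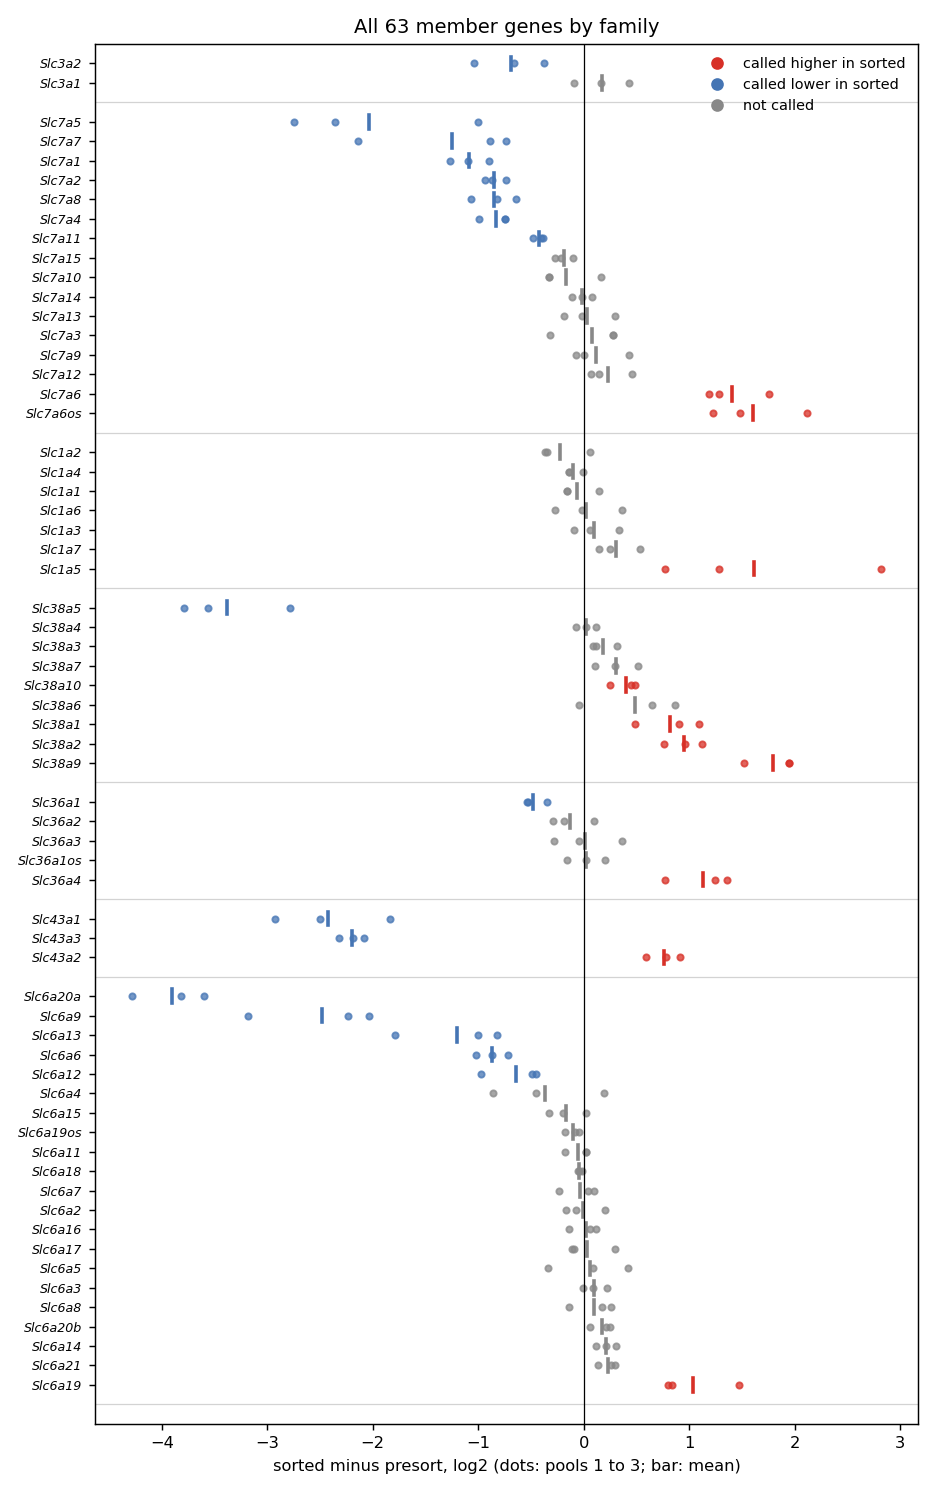
Sorted minus presort log2 difference of the 63 member genes by family, with a dot for each of the 3 pools and a bar at the mean, coloured by whether the gene was called higher or lower. Most Slc7 members that were called lie left of 0, most called Slc38 members lie right of 0, and Slc6a20a at -3.90 and Slc38a5 at -3.38 lie farthest from 0.

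The heavy chain of most Slc7 light chains in blood cells, Slc3a2 (CD98), fell modestly. It lay at 11.13, 11.26 and 11.16 in presort replicates 1, 2 and 3 and at 10.47, 10.23 and 10.79 in the sorted ones. All sorted arrays were lower than all presort arrays, and the fall was 0.69 ± 0.15 (SE, log2; 1.61-fold; limma adjusted p = 0.0099). The call was lost without pool 2 (difference -0.52, adjusted p = 0.0875) as well as in a fit that took the beta-actin 3' to 5' difference into account, called the 3' to 5' covariate below (-0.65, 0.0668). Slc3a1, the heavy chain of the kidney cystine transporter, read 5.06, 4.92 and 4.98 in presort and 5.49, 5.08 and 4.89 in sorted arrays. Its groups overlapped at a dim signal, and the difference of 0.17 ± 0.16 was not called (adjusted p = 0.519).

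The Slc7 genes placed as light chains of heterodimeric transporters parted in direction. Of 10 measured light chain genes, 4 fell, 1 rose and 5 were not called. Slc7a5 (LAT1), which exchanges large neutral amino acids such as leucine, lay at 10.04, 9.87 and 9.43 in presort and 7.67, 7.11 and 8.43 in sorted arrays. The groups did not overlap, although pool 3 had a smaller difference (-1.0) than pools 1 and 2 (-2.36 and -2.75). The fall was 2.04 ± 0.32 (4.11-fold; limma adjusted p = 0.00168). Slc7a6 (y+LAT2), which exchanges cationic for neutral amino acids with the same heavy chain, read 8.29, 8.49 and 8.02 in presort and 9.57, 9.68 and 9.78 in sorted arrays. It was the only called light chain that was higher, by 1.41 ± 0.14 (2.66-fold; adjusted p = 0.000185), and its 3 sorted arrays lay close together.

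Slc7a7 (y+LAT1), a close relative of Slc7a6 known from macrophages and epithelia, lay at 9.65, 8.74 and 8.81 in presort and 7.51, 7.85 and 8.07 in sorted arrays. Presort replicate 1 was the highest of its group, so that pool 1 had the largest difference (-2.14, against -0.89 and -0.74). The fall was 1.25 ± 0.26 (2.39-fold; limma adjusted p = 0.00682), it was 0.81 without pool 1, and with the 3' to 5' covariate it was not called (-1.03, adjusted p = 0.0711). Slc7a8 (LAT2), another carrier of neutral amino acids, fell from 5.85 ± 0.19 to 5.00 ± 0.03 (SD, n = 3 each), at a dim signal. Slc7a11, the cystine and glutamate exchanger that supplies glutathione synthesis, fell by 0.42 ± 0.12 (adjusted p = 0.028), also dim. That call did not survive the loss of presort replicate 1 or 3, of sorted replicate 2 or 3, or of pool 2 or 3 (adjusted p from 0.0771 to 0.206), nor median centring (-0.20, 0.279). The 5 others, Slc7a9, Slc7a10, Slc7a12, Slc7a13 and Slc7a15, had differences between -0.19 and 0.23.

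The cationic amino acid transporters of the Slc7 family, which work without a heavy chain, fell in 3 of 5 cases. That is 60.0%, against 18.1% of all genes. Slc7a1 (CAT1), the main arginine and lysine importer of many cells, lay at 10.98, 11.32 and 11.24 in presort and 9.71, 10.22 and 10.34 in sorted arrays. Every sorted array was lower, with sorted replicate 1 the lowest, and the fall was 1.09 ± 0.18 (2.13-fold; limma adjusted p = 0.00251), or 0.70 with the 3' to 5' covariate. Slc7a2 (CAT2), an arginine importer of activated macrophages, fell from 5.12 ± 0.14 to 4.27 ± 0.08 (adjusted p = 0.00087). It was dim, and with the mean of its 4 probe sets it was -0.24 and not called (0.0698). Slc7a4, placed with them by sequence, fell by 0.83 ± 0.17, a call that was lost without pool 2 (-0.75, adjusted p = 0.0759) and with the covariate (-0.58, 0.0759), and with the mean of its probe sets it fell by 0.54. Slc7a3 and Slc7a14 stood at 0.08 and -0.02.

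Promoter sequence was searched for TGATGNAA, the core of the element through which amino acid shortage acts on many transporter and synthesis genes, because cystine and leucine carriers are known targets of that response. Of the 63 members 46 had a promoter in RefSeq's table for GRCm38.p6, a window of 300 bases from 250 before to 50 after the start. The other 17 members and all sequence outside the window were not searched, so a member without a match may still hold the element. The motif, searched on both strands, occurred in 4 of these 46 genes (8.7%), Slc7a11, Slc7a7, Slc1a4 and Slc6a21, and in 4.51% of 27025 genes with such windows. The sequences of Slc7a11 and Slc7a7 are shown because these genes fell and hold the motif, with its letters in capitals. They are the only 2 of 20 called members with a promoter that hold it in the window. A link between the motif and the fall was not tested. The Slc7a11 stretch at chr3:50443641-50443691 (minus strand) holds 2 matches on opposite strands, 11 bases apart, that begin 66 and 47 bases before the start. The Slc7a7 stretches lie at chr14:54418066-54418097 and chr14:54417926-54417957 (minus strand), with matches that begin 141 bases and 1 base before the start.
Slc7a11: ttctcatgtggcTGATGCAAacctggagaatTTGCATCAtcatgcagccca
Slc7a7, far match: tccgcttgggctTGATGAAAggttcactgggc
Slc7a7, near match: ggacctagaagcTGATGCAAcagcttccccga
These are matches of letters and not shown binding sites. Slc1a4 and Slc6a21, the other genes with a match, were not called, at -0.10 and 0.23.

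The Slc38 family, sodium-coupled carriers of glutamine, alanine and other small neutral amino acids, gave 4 rises and 1 fall among 9 measured genes. The shares were 44.4% higher and 11.1% lower, against 14.5% and 18.1% of all genes, with no test of the difference. Slc38a9, which sits in the lysosome membrane and signals arginine to the growth kinase complex mTORC1, read 8.88, 8.89 and 8.91 in presort and 10.83, 10.84 and 10.42 in sorted arrays. The presort arrays were nearly equal, all sorted arrays were higher, and the rise of 1.80 ± 0.14 was the largest among the members (3.49-fold; limma adjusted p = 4.68e-05). Slc38a2 (SNAT2), which cells induce when amino acids are scarce, lay at 11.85, 11.94 and 12.02 in presort and 12.97, 12.91 and 12.78 in sorted arrays. Its groups were tight and apart, with a rise of 0.95 ± 0.11 (1.93-fold; adjusted p = 0.000367).

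Slc38a1 (SNAT1), a glutamine importer of lymphocytes and neurons, read 10.66, 10.31 and 10.42 in presort and 11.56, 11.39 and 10.91 in sorted arrays. The groups did not overlap, and the rise was 0.82 ± 0.19 (limma adjusted p = 0.0104), a call lost without pool 2 (0.69, 0.11) and with the 3' to 5' covariate (0.53, 0.112). Slc38a10 rose by 0.40 ± 0.10 (adjusted p = 0.0205). This call was lost without presort replicate 1, 2 or 3 or any of the 3 pools (adjusted p from 0.0559 to 0.155), with the covariate (0.33, 0.123) and with the mean of its 7 probe sets (0.12, 0.369).

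Slc38a5 (SNAT5), which also carries glycine and serine and is known from red cell precursors, went the other way. It lay at 11.97, 12 and 11.87 in presort and at 8.17, 8.44 and 9.09 in sorted arrays. It fell by 3.38 ± 0.22 (10.4-fold; limma adjusted p = 2.75e-05), with differences of -3.79, -3.56 and -2.78 in pools 1, 2 and 3, and sorted replicate 1 was the lowest array. Of the remaining members, Slc38a6 was at 0.49 (adjusted p = 0.0684) and overlapped through pool 3 (-0.04), while without pool 3 it was called (0.76, 0.0225), as it was without sorted replicate 3 (0.68, 0.0117). Slc38a7, a glutamine exporter of lysosomes, was at 0.31 and was called without sorted replicate 2 (0.43, 0.0325). Slc38a3 and Slc38a4 were at 0.18 and 0.02.

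Slc36 proteins carry small amino acids with protons, in part out of lysosomes, and the 2 ubiquitous members moved apart. Slc36a4 (PAT4) lay at 9.57, 9.37 and 9.27 in presort and 10.34, 10.61 and 10.63 in sorted arrays. The groups were apart in every pool and the rise was 1.13 ± 0.13 (2.18-fold; limma adjusted p = 0.000392). Slc36a1 (PAT1) fell from 8.23 ± 0.14 to 7.75 ± 0.22, by 0.48 ± 0.14 (adjusted p = 0.0367). That call was lost without any single presort array, without sorted replicate 2 or 3 and without pool 2 or 3 (adjusted p from 0.0501 to 0.233), with median centring (-0.25, 0.242), with repeated quantile normalization (-0.24, 0.278) and with an intensity trend (-0.48, 0.0677). Slc36a2 and Slc36a3 were at -0.13 and 0.01.

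The Slc1 family holds the glutamate transporters of brain and 2 carriers of neutral amino acids. In it 1 of 7 genes was called (14.3%, against 32.6% of all genes). Slc1a5 (ASCT2), the glutamine carrier of proliferating cells, read 10.25, 9.14 and 8.87 in presort and 11.02, 10.42 and 11.69 in sorted arrays. The groups did not overlap, but presort replicate 1 came near sorted replicate 2, and the difference was 0.77, 1.28 and 2.82 in pools 1, 2 and 3. The rise was 1.62 ± 0.41 (3.08-fold; limma adjusted p = 0.0178). Leaving out presort replicate 2 (1.48, 0.0688) or 3 (1.34, 0.0686), sorted replicate 3 (1.30, 0.0574) or all of pool 3 (1.02, 0.155) ended the call, as did the fit with the 3' to 5' covariate (1.56, 0.0999). Its paralog Slc1a4 (ASCT1) was not called, at -0.10 ± 0.10. The glutamate transporters Slc1a1, Slc1a2, Slc1a3, Slc1a6 and Slc1a7 had differences from -0.22 to 0.31. Slc1a7 was called without sorted replicate 1 (0.43, 0.0313) and with the covariate (0.54, 0.0308), median centring (0.54, 0.00886) and repeated quantile normalization (0.41, 0.0325).

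All 3 Slc43 genes were called, in both directions, where 32.6% of all genes were called. Slc43a1 (LAT3), a carrier of leucine and other branched-chain amino acids, lay at 10.14, 9.86 and 9.99 in presort and 7.64, 6.93 and 8.15 in sorted arrays. The sorted arrays spread more than the presort ones, and the gene fell by 2.42 ± 0.28 (5.36-fold; limma adjusted p = 0.000345). Slc43a3, which carries purine nucleobases and not amino acids, fell from 10.96, 10.86 and 10.99 to 8.64, 8.78 and 8.80, with groups of small spread and a fall of 2.20 ± 0.11 (4.58-fold; adjusted p = 1.55e-05). Slc43a2 (LAT4), the other leucine carrier, read 10.09, 10.34 and 10.23 in presort and 10.87, 10.93 and 11.14 in sorted arrays. It was higher in each pool, by 0.76 ± 0.12 on average (1.69-fold; adjusted p = 0.00203).

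Slc6 proteins carry neurotransmitters, creatine, taurine, betaine and amino acids with sodium and chloride. Of 20 measured transporters 5 fell and 1 rose (25.0% and 5.0%, against 18.1% and 14.5% of all genes). Slc6a20a, a carrier of proline and other imino acids, lay at 9.12, 9.36 and 9.05 in presort and 5.30, 5.08 and 5.45 in sorted arrays. This was the largest fall among the members, 3.90 ± 0.14 (14.9-fold; limma adjusted p = 1.13e-05), to a sorted mean of 5.28, under the 5.59 below which the dimmest 6065 genes lie. Its neighbour and paralog Slc6a20b was at 0.17 ± 0.12 and not called. Slc6a9 (GlyT1), the glycine importer of red cell precursors, read 10.50, 10.44 and 10.46 in presort and 7.32, 8.21 and 8.42 in sorted arrays. Presort arrays were nearly equal, sorted replicate 1 was the lowest, and the gene fell by 2.48 ± 0.26 (5.60-fold; adjusted p = 0.000214).

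Slc6a13 (GAT2) and Slc6a12 (BGT1), carriers of GABA and betaine, both fell. Slc6a13 lay at 7.41, 7.96 and 7.75 in presort and 6.60, 6.96 and 5.96 in sorted arrays, and fell by 1.20 ± 0.26 (limma adjusted p = 0.00791), and without pool 3 it was at -0.91 (0.0549). Slc6a12 fell by 0.64 ± 0.14, a call lost without pool 1 (-0.47, adjusted p = 0.0524), with median centring (-0.41, 0.0537) and with the 3' to 5' covariate (-0.43, 0.104). Slc6a6, the taurine transporter, read 11.18, 10.94 and 10.98 in presort and 10.16, 10.22 and 10.10 in sorted arrays. It was lower in every pool, by 0.87 ± 0.11 (1.83-fold; adjusted p = 0.000661), and with the mean of its 4 probe sets the fall was 0.54.

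Slc6a19 (B0AT1), the neutral amino acid carrier of gut and kidney, was the Slc6 gene that rose. It lay at 5.51, 5.61 and 5.63 in presort and 6.35, 6.41 and 7.10 in sorted arrays, a rise of 1.04 ± 0.20 (limma adjusted p = 0.00487) from a presort signal near that bound. Its second probe set was at 0.24 and not called, and the mean of both rose by 0.64. Among the Slc6 genes, the serotonin transporter gene Slc6a4 varied most between presort arrays, at 5.06, 6.22 and 6.08, and was not called at -0.37, but was without presort replicate 1 (-0.74, 0.0294). With median centring the dim Slc6a3, Slc6a14, Slc6a20b and Slc6a21 were called, at 0.33 to 0.46, as was Slc7a12 (0.45), while Slc38a6 and Slc38a7 were called under that setting and under repeated quantile normalization. The creatine transporter gene Slc6a8 was at 0.10 ± 0.15, and the other 12 Slc6 transporters that were not called lay between -0.17 and 0.23.

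**Figure D2:**
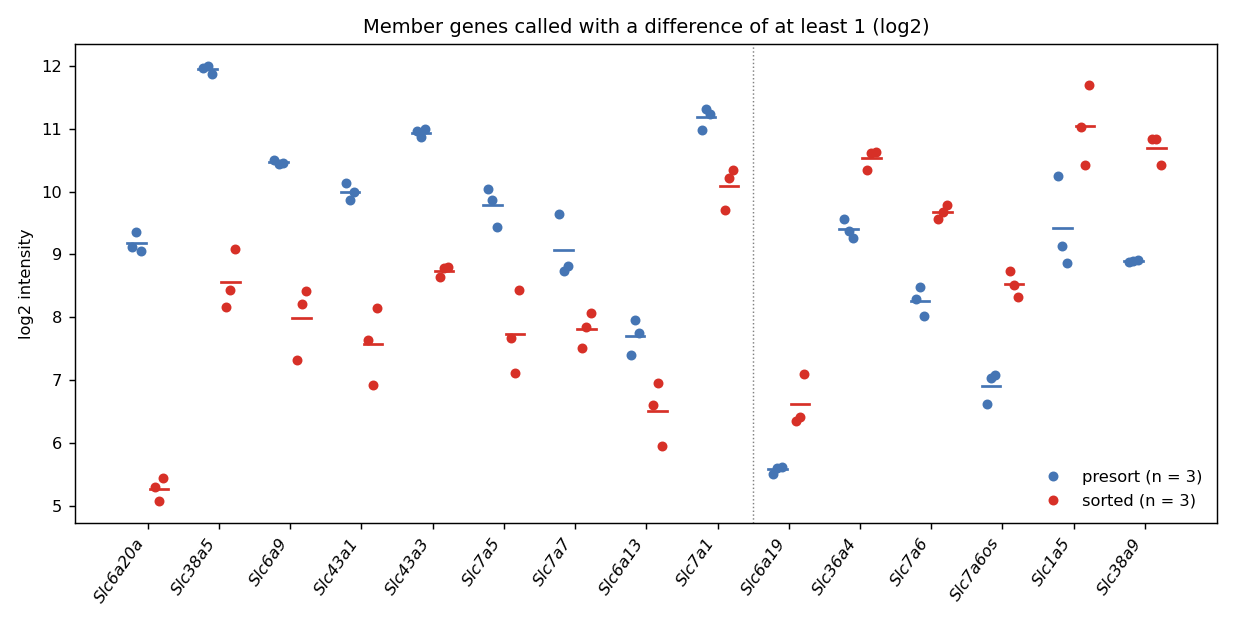
Log2 intensity of the 15 called members with a difference of at least 1, in the 3 presort and 3 sorted arrays, with a line at each group mean. The 9 genes left of the dotted line were lower in sorted arrays and the 6 to its right higher, and Slc1a5 shows the widest spread among presort arrays (SD 0.73).

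Some members lie side by side on a chromosome in RefSeq's gene order, and their directions were set beside each other. Slc7a6 and its neighbour Slc7a6os, which is thought to act in the nuclear import of RNA polymerase II, both rose. Slc7a6os lay at 6.62, 7.03 and 7.09 in presort and 8.74, 8.51 and 8.33 in sorted arrays, a rise of 1.61 ± 0.17 (3.06-fold; limma adjusted p = 0.000208). Slc38a1 and Slc38a2 are adjacent and both rose, while Slc38a4 beside them was at 0.02. Slc6a13 and Slc6a12 are adjacent and both fell, and Slc43a1 and Slc43a3, with 1 coding gene between them, both fell. Slc6a18 beside Slc6a19 was at -0.04, Slc6a19os at -0.10 and Slc36a1os beside Slc36a1 at 0.02, all not called.

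The share of members called differed with their signal. All genes were split into 3 groups of near equal size by their mean over the 6 arrays, a measure of how far a probe set rises above the dim end of the scale and not of the amount of RNA. In the bright group (mean above 8.69) all 16 members were called, 8 higher and 8 lower, where 27.7% of all genes in that group were higher and 26.9% lower. In the middle group 2 of 19 members were higher and 5 lower, against 14.2% and 23.7%. In the dim group (mean up to 5.59) none of 28 members was called higher in limma and 4 were lower (Slc7a2, Slc7a8, Slc7a11 and Slc6a12), against 1.43% and 3.66% of all genes there, and the same 4 were the only ones with an unadjusted p under 0.05. A gene high in 1 group has a higher mean for it, so these groups are not free of the difference.

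**Figure D3:**
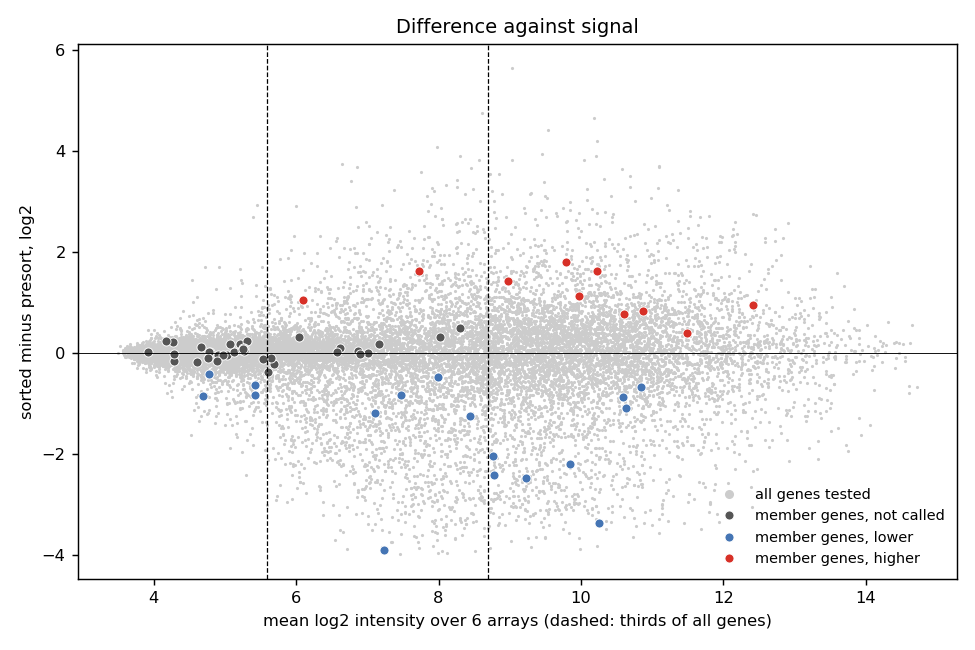
Sorted minus presort log2 difference against the mean log2 intensity over 6 arrays for 18193 genes (grey) and the 63 members (coloured by call), with dashed lines at the bounds of the 3 brightness groups, 5.59 and 8.69. Every member right of the second line is called, and most of those left of the first line lie close to 0.

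The 63 members were read by 125 probe sets, and 32 members by more than 1. Of the 16 called members with several probe sets, 8 had every other probe set called the same way and none had a probe set called the opposite way, in a limma fit over 34945 probe sets of which 28.8% were called. All 7 probe sets of Slc38a9 rose, by 0.52 to 1.80, and all 3 of Slc38a2, by 0.95 to 1.41. The second probe set of Slc6a9 fell by 0.97, and that of Slc1a5 rose by 0.86. The other probe sets of Slc38a10 ran from -0.21 to 0.38 with 1 of 6 called, and the 3 others of Slc7a2 from -0.13 to 0.05 with none called. No other probe set of the 16 uncalled members with several was called.

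**Figure D4:**
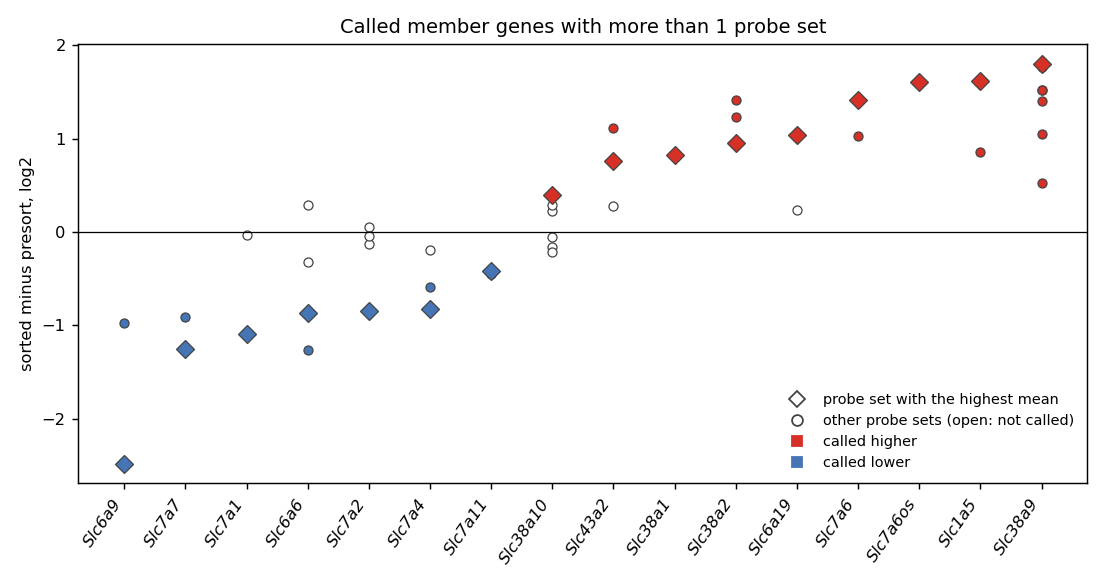
Sorted minus presort log2 difference of every probe set of the 16 called members with more than 1, with a diamond for the probe set with the highest mean, circles for the others, and open symbols where not called. No coloured symbol lies on the other side of 0 from its gene's diamond, and Slc6a6, Slc7a2 and Slc38a10 have open symbols on both sides.

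Genes around amino acid supply were described from lists chosen with earlier results of these data known. Over all genes 14.5% rose and 18.1% fell, and in the bright group 27.7% and 26.9%. No list was tested against these shares. Among 34 measured genes of amino acid sensing by mTORC1, 8 (23.5%) rose and 9 (26.5%) fell (median -0.02). Sesn3, a sestrin that restrains mTORC1, rose by 2.04 ± 0.18 (limma adjusted p = 8.35e-05), and Bmt2, an S-adenosylmethionine sensor, rose by 1.21. Fnip2, a partner of folliculin, fell by 3.06 ± 0.14 (adjusted p = 1.47e-05) and Lamtor4, a subunit of the lysosomal Ragulator, by 1.24. With median centring 14 genes of this list were higher. Under that setting 42.5% of all genes were called, and 66.7% of those calls were higher.

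Genes listed for the response to amino acid shortage, which the transcription factor Atf4 drives, were called in both directions. The response itself was not tested. Among 26 measured genes, 6 (23.1%) rose and 11 (42.3%) fell (median -0.27). Of these, Slc7a1, Slc7a5, Slc7a11 and Slc3a2 fell and Slc38a2 rose as members described above. Without these 5 members, 5 (23.8%) rose and 7 (33.3%) fell. Cth, which makes cysteine, rose by 3.73 ± 0.17 and Atf3, a transcription factor, by 2.58 ± 0.28, while Asns, which makes asparagine, fell by 3.18 ± 0.14 (limma adjusted p of 1.47e-05, 0.000235 and 1.47e-05). Atf4 itself, named after its value was seen, rose by 0.62 ± 0.12 (adjusted p = 0.00461), a call lost without pool 2 (0.0501) and pool 3 (0.0829). Without pool 2, 7 genes of the list were lower.

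Among 21 measured amino acid and peptide carriers of other families, 4 (19.0%) rose and 7 (33.3%) fell (median -0.03), and with the replicate block 7 rose. Slc16a10, a carrier of aromatic amino acids, fell by 2.55 ± 0.22 (limma adjusted p = 9.08e-05). Slc25a38, which brings glycine into mitochondria for heme synthesis, fell by 1.63 and Slc25a13, a mitochondrial aspartate and glutamate carrier, by 1.49. Slc15a4, a lysosomal carrier of histidine and peptides, rose by 1.38. Slc15a2, a peptide carrier named after its values were seen, had a difference of 2.25 that was not called (adjusted p = 0.0714), with 7.21 in presort replicate 3 against 10.35 and 10.24 in the others. Of 19 measured cytosolic aminoacyl-tRNA synthetases, which load amino acids onto tRNA, 2 (10.5%) rose and 7 (36.8%) fell (median -0.24). The alanyl enzyme gene Aars led them at -0.83. These synthetase counts were not stable: with 1 array or pool left out 0 to 2 were higher and 1 to 6 lower, down to 1 lower without presort replicate 2, 2 lower without presort replicate 3, pool 2 or pool 3, and 0 higher without sorted replicate 3 or pool 3. With median centring, where 66.7% of the calls over all genes were higher, 4 were higher and 1 lower.

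**Figure D5:**
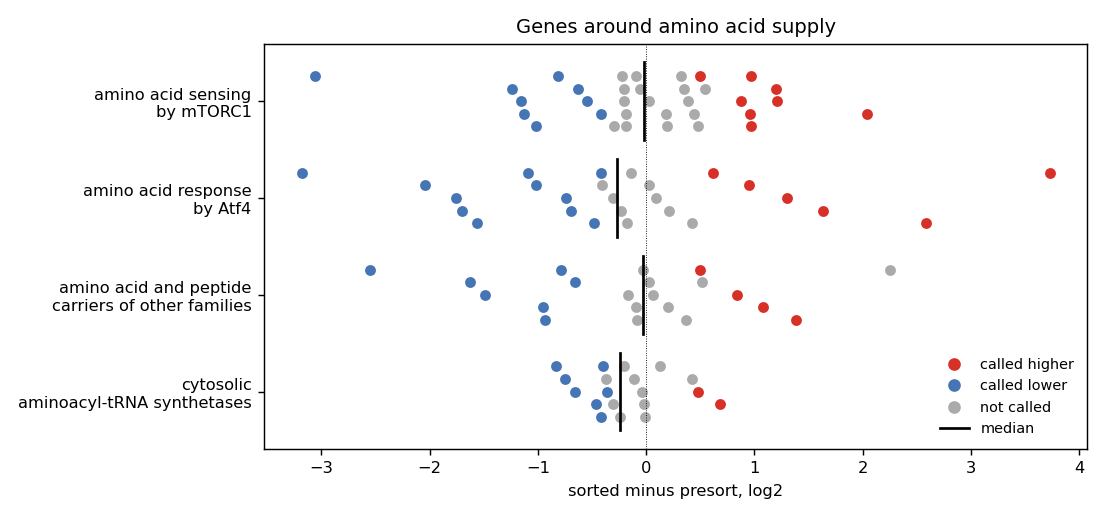
Sorted minus presort log2 difference of the measured genes of 4 lists, with dots coloured by call and a line at each list's median. Calls lie on both sides of 0 in every list, and the medians run from -0.27 to -0.02.

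Markers of marrow cell types differed between the groups beside these genes. Of 9 erythroid markers all fell (median -3.18), and their summed intensity was 50999 to 55254 in presort and 14304 to 21574 in sorted arrays. Of 9 neutrophil markers all fell (median -2.11; 163598 to 171917 and 50624 to 86099), as did 10 of 10 monocyte and macrophage markers (median -2.81; 20600 to 25137 and 2076 to 4245) and 9 of 9 cell division genes (median -2.60; 43555 to 44165 and 7053 to 11326). Of 9 B lineage markers all rose (median 2.35; 9771 to 19613 and 69820 to 74633). Of 9 plasma cell markers 5 rose and 1 fell, of 7 T and NK cell markers 1 fell, and of 8 megakaryocyte markers 4 fell. No marker can read 0 on this scale, whose lowest intensity is 9.71. The part of these cell types in the members' differences was not tested.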

How the data were processed

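RNA of 3 presort and 3 sorted samples was read on 1 array each. The authors deposited intensity values on a linear scale, for which the submitters' processing notes name RMA. Its version is not given in the sources used here. Intensities ran from 9.71 to 38492.08 on every array. Ranked values differed by at most 0.181% of their mean between arrays, so a change in total RNA per cell leaves no trace. Labelling started at the 3' end, per the labels, so degraded RNA lowers 5' probe sets more.

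Log2 of the deposited intensities was taken with no pseudocount and no filter on dim genes. Of 45101 probe sets, 34945 carried 1 gene symbol in the platform annotation, and the one with the highest mean over 6 arrays stood for each of 18193 genes. A probe set with several symbols, 1 of them a member's, was not used. Differences were fitted two-sided with lmFit and eBayes of limma 3.58.1, run under R 4.3.3, with 4 residual degrees of freedom per gene. This main fit had no term for the pool, so its SE and adjusted p do not use the pairing. Full values are given for members called with a difference of at least 1, both heavy chains and the brightest member of each family. Alternatives were the replicate block, leaving out each array or pool, other filters, probe set rules and scalings, an intensity trend, the 3' to 5' covariate and limma's treat against 0.5. On simulated data for sorted against presort, 200 of 18193 genes were changed. Of changes of 1 and 2 (log2), 54% and 93% were recovered, with 2 false calls. Its noise was drawn independently for each array, and 5925 genes were called in the data, so these rates need not hold there. Members and lists were chosen with earlier results of these data known.

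Numbers pair the samples because both arrays of a number come from 1 pool, per the series' design text. In pools 1, 2 and 3 the correlation, over genes, of the presort array's and the sorted array's deviation from its group mean was 0.39, 0.20 and -0.03. The renin gene is not reported here. Figures were drawn with matplotlib 3.10.9.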

Additional observations from a re-analysis of the deposited data

How the results depend on the processing

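Of the 27 called members, 16 (7 higher and 9 lower) kept their call under each of up to 17 alternatives (treat, a stricter test, is not among them), 11 lost it under at least 1, and none reversed. With the replicate block, which uses the pairing by pool, 10 members were higher and 17 lower, and it ended no member's call. The block fit called 35.2% of all genes. Leaving out 1 array or 1 pool gave 8 to 11 members higher and 13 to 17 lower, a median difference of the members of -0.036 to 0.039 (-0.006, -0.014 and -0.036 without pools 1, 2 and 3 and -0.032 without sorted replicate 2), and 1544 (without pool 3) to 2608 higher genes over all genes. With each array centred on its median, 18 members and 5162 genes over all were higher, and the median of the members was 0.241. Repeated quantile normalization gave a median of 0.045, and leaving out the dim group of genes or the _x_at and _s_at probe sets gave -0.015. Tested by limma's treat against 0.5, 5 members were higher and 8 lower, and 15.4% of all genes were called. Slc3a1, not called, changed sign with the 3' to 5' covariate (-0.16). With the 3' to 5' covariate, which was higher in all sorted arrays than in all presort arrays, 8 members were higher and 13 lower. Of all genes 26.5% were called in that fit. Calls lost under single alternatives stand beside each gene. There were no detection calls, so for the 24 uncalled members in the dim group a low signal and no difference cannot be told apart.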
